A study of Mus musculus with 8 samples.

Results

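The lysosomal gene group described here held 40 genes, most of which encode the hydrolases of the lysosome lumen and the proteins of its membrane. They were taken as the rows of a gene expression table of cultured mouse cardiac fibroblasts whose symbols stood on a list of lysosomal genes. All 40 symbols were found among the 24015 of the table, and all 40 passed the filter on low values. By role there were 10 proteases, 8 glycosidases, 7 enzymes that degrade glycosaminoglycans, 6 lipid-handling enzymes and lipid-binding proteins, 6 membrane proteins, and a group of 3 with the transcription factor Tfeb, the autophagy receptor Sqstm1 and progranulin (Grn).

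The cells came from hearts of 8-week-old C57BL/6J mice, wild type, and were cultured as cardiac fibroblasts, measured by RNA sequencing over time in osteogenic differentiation medium, a medium used to drive mesenchymal cells towards bone formation. The 4 groups were cells taken before the medium (day 0) and cells after 7, 14 and 21 days in it, with 2 libraries per group. Cultures of the same length without this medium were not analysed here, so the medium and the days in culture cannot be told apart. Whether the 2 libraries of a time stem from different cultures or mice is not stated in the labels, and p-values therefore measure only the spread between these libraries, which may be technical.

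The lysosome is the acidic compartment in which cells break down protein, glycan and lipid brought in by endocytosis, phagocytosis and autophagy. Its hydrolases are made in the endoplasmic reticulum, tagged in the Golgi with mannose 6-phosphate, and carried to the lysosome by mannose 6-phosphate receptors, while its membrane proteins protect the limiting membrane and export the products. The transcription factor TFEB and its relatives bind E-box sequences near the start of many of these genes and can raise them together. Fibroblasts use lysosomes to turn over collagen and proteoglycan, and macrophages and osteoclasts express many of the same genes strongly.

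Between 13399313 and 21883498 reads were assigned to genes per library, and each of the 40 genes had at least 147 reads in each library. Replicate libraries correlated at 0.993 at day 0, 0.994 at day 7, 0.988 at day 14 and 0.990 at day 21 (Pearson's r across genes, which are not independent replicates). The chi-square over degrees of freedom between replicates was 4.22 at day 0, 3.06 at day 7, 15.9 at day 14 and 15.7 at day 21, so the later times were noisier than the earlier ones. Values below are normalized counts, that is reads divided by a size factor of the library. A gene is called higher or lower where limma's adjusted p (Benjamini-Hochberg over 13527 genes) is below 0.05, and differences are log2 fold changes ± the standard error of that fit.

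The lysosomal genes as a group stood higher after the medium at each time. Their summed normalized counts were 227743 and 224010.0 (day 0), 394143 and 403986 (day 7), 374464 and 362066 (day 14), and 461075 and 451472 (day 21). The libraries of each later time all lay above those of day 0, and the day 21 libraries lay above all others. Relative to day 0 the mean of the sums was 1.77-fold at day 7, 1.63-fold at day 14 and 2.02-fold at day 21. The 40 genes took up 1.28 to 1.31% of all signal at day 0, 2.23 to 2.24% at day 7, 2.07 to 2.14% at day 14, and 2.38 to 2.47% at day 21. The protease gene Ctsd was the largest single part of the sum, and without it the ratios to day 0 were 1.72, 1.62 and 2.03 in order of time. In bulk samples of this kind, fewer cells of a type and less RNA per cell cannot be told apart.

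At day 7 against day 0, 31 of the 40 genes were called higher and 0 lower, where 27.5% of all tested genes were called higher and 27.9% lower. With the unadjusted threshold of 0.05, 0 of the 40 were lower at day 7, and edgeR and DESeq2 called 0 lower. At day 14 against day 0, 23 were called higher and 4 lower (all tested genes: 35.2% higher and 35.6% lower). At day 21 against day 0, 36 were called higher and 0 lower (all tested genes: 29.8% higher and 29.5% lower). With the unadjusted threshold 1 of the 40, Tfeb, was lower at day 21, and edgeR and DESeq2 called 0 lower. The median log2 fold change of the 40 was 0.71 at day 7, 0.47 at day 14 and 0.84 at day 21, against -0.01, 0.00 and 0.00 over all tested genes. These 3 comparisons share the day 0 libraries, and their shares of all tested genes also stand beside the counts by role below.

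**Figure D1:**
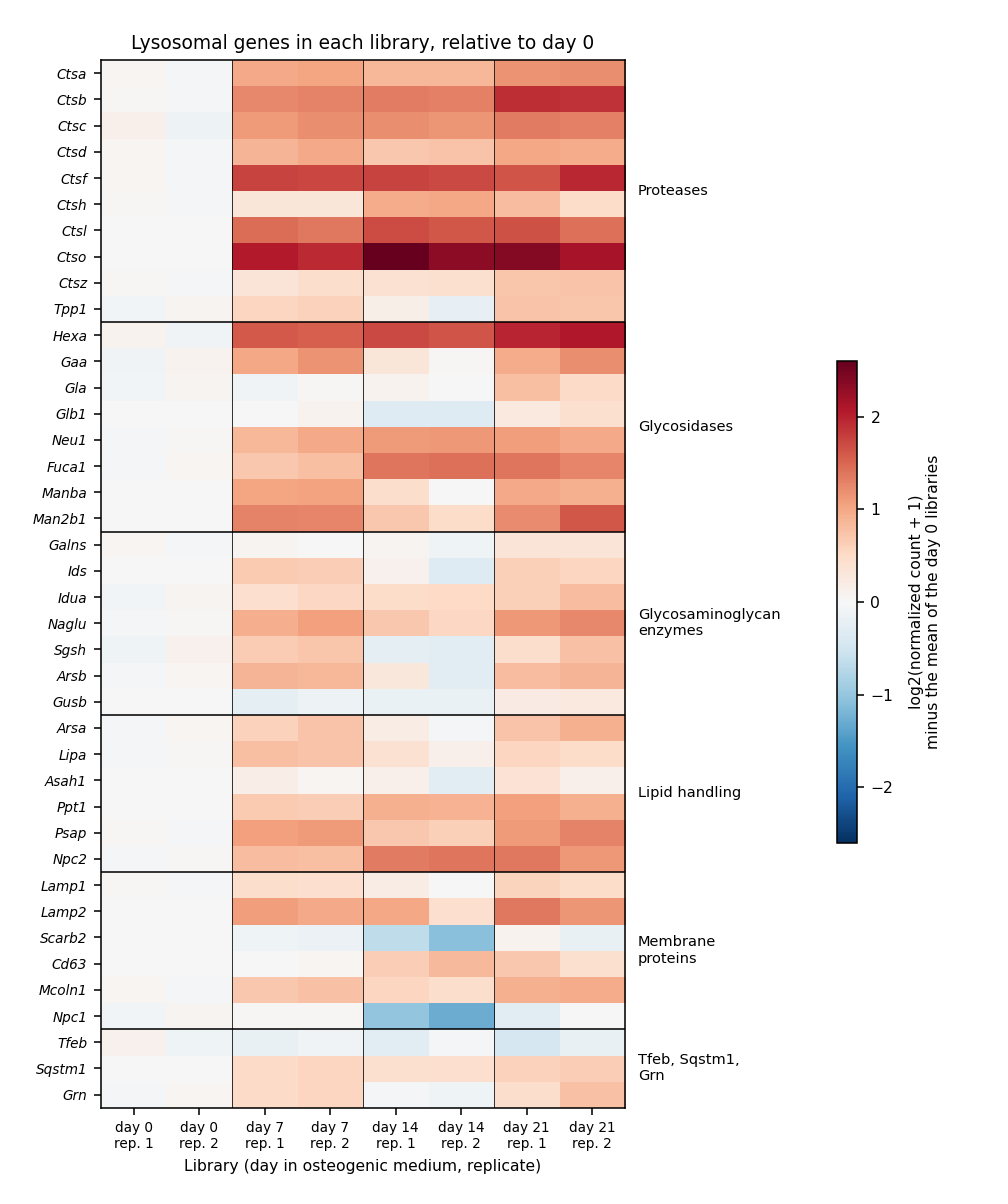
Each row is 1 of the 40 lysosomal genes, grouped by role, and each column 1 of the 8 libraries in order of time. Colour gives log2(normalized count + 1) minus the mean of the day 0 libraries, so red is above day 0 and blue below. Most rows are red from day 7 on, and Npc1, Scarb2 and Glb1 are blue at day 14.

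The proteases had the largest median change of the roles at each time. All 10 were called higher at day 7, 9 at day 14 and all 10 at day 21, with median log2 fold changes of 1.08, 1.08 and 1.26 against day 0. Ctso, a cysteine cathepsin, had 214 and 213 (day 0), 889 and 821 (day 7), 1364 and 1081 (day 14), and 1123 and 953 (day 21) (normalized counts). No library of a later time came near those of day 0. The log2 fold change of Ctso against day 0 was 1.99 ± 0.13, adjusted p = 7.25e-08 at day 7, 2.50 ± 0.13 at day 14 and 2.27 ± 0.13 at day 21 (limma, Benjamini-Hochberg), the largest of the 40 genes at each time. Ctsf, another cysteine cathepsin, had 356 and 331 (day 0), 1155 and 1140.2 (day 7), 1169.8 and 1129 (day 14), and 1067 and 1338 (day 21). Its libraries of days 7, 14 and 21 overlapped each other and stood well above day 0, at log2 1.74 ± 0.11, 1.74 ± 0.11 and 1.80 ± 0.11.

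Ctsb, an abundant cysteine cathepsin with endopeptidase and carboxypeptidase activity, was called higher again at the last time. It had 14759 and 14172 (day 0), 34346 and 35539 (day 7), 36154 and 36054 (day 14), and 54475 and 53109.9 (day 21) normalized counts. The libraries of days 7 and 14 stood close together, and both libraries of day 21 stood above them. Against day 0 the log2 fold change was 1.27 ± 0.11 at day 7, 1.32 ± 0.11 at day 14 and 1.89 ± 0.11 at day 21, and between days 21 and 14 it was 0.58 ± 0.11, adjusted p = 0.00236. Ctsd, the main aspartic protease of the lysosome, had 60816 and 57169.8 (day 0), 108780.0 and 116098 (day 7), 95686 and 98603 (day 14), and 117834 and 115748 (day 21) normalized counts. All its later libraries lay above day 0, at log2 0.93 ± 0.13, 0.72 ± 0.13 and 0.99 ± 0.13, and the steps between days 7, 14 and 21 were not called. Per kilobase of transcript Ctsd had the highest mean level of the 40 genes at all 4 times, 27735 normalized counts per kb at day 0 and 54909 at day 21, ahead of Lamp1 with 9189 per kb at day 0 and of Ctsl with 17646 per kb at day 21.

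Ctsh, an aminopeptidase of the cathepsin family, followed another course. It had 2654 and 2517 (day 0), 3202 and 3203 (day 7), 5058 and 5206 (day 14), and 4519 and 3593 (day 21) normalized counts. Its highest libraries were those of day 14, and the day 21 libraries lay between those of days 14 and 7. The log2 fold change was 0.31 ± 0.11, adjusted p = 0.0287 at day 7 against day 0, 0.68 ± 0.11, adjusted p = 0.000343 at day 14 against day 7 and -0.35 ± 0.11, adjusted p = 0.0269 at day 21 against day 14. The day 7 call of Ctsh was lost without any 1 of the 4 libraries of days 0 and 7 (log2 0.27 to 0.35, adjusted p = 0.0770 to 0.160), and its fall from day 14 on was lost without the second library of day 14 (log2 -0.33, adjusted p = 0.0816) or of day 21 (log2 -0.18, adjusted p = 0.204), and without either library of day 7 (log2 -0.35, adjusted p = 0.0535 and 0.0536). Ctsh has a short transcript (1617 bases), and with the length and GC trend removed its log2 fold change was 0.35 at day 14 against day 7 and -0.13 at day 21 against day 14, the second no longer called (adjusted p = 0.284).

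Tpp1, the tripeptidyl peptidase whose loss causes a form of neuronal ceroid lipofuscinosis, had 2608 and 2895 (day 0), 4059 and 4146 (day 7), 3040.3 and 2369 (day 14), and 4618 and 4513 (day 21) normalized counts. The day 14 libraries lay on either side of those of day 0, and the libraries of days 7 and 21 stood above both. Against day 0 its log2 fold change was 0.58 ± 0.12 at day 7, -0.03 ± 0.12 at day 14 and 0.73 ± 0.12 at day 21, with only the day 14 value not called. Of the other proteases, Ctsl rose by log2 1.42 at day 7, 1.66 at day 14 and 1.54 at day 21. Ctsc, which activates granule proteases of blood cells, rose by 1.16, 1.18 and 1.33 at the same times. The carboxypeptidase Ctsa, which also protects the lysosomal sialidase and beta-galactosidase in a complex, rose by 1.01, 0.87 and 1.19. Ctsz, a carboxypeptidase, rose by 0.40, 0.41 and 0.72, and its day 7 call was lost without the second library of day 7 (log2 0.34, adjusted p = 0.0587). After removal of the trend with transcript length and GC content, Ctsz stood at log2 0.07 at day 14 against day 0 (adjusted p = 0.492).

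The glycosidases, which take sugars off glycoproteins, glycolipids and glycogen, had 6 of 8 called higher at day 7, 4 higher and 1 lower at day 14, and 8 of 8 higher at day 21. Hexa, the alpha subunit of the ganglioside-degrading beta-hexosaminidase A that is missing in Tay-Sachs disease, had 2763 and 2437 (day 0), 7842 and 7627 (day 7), 8577 and 8014 (day 14), and 10185 and 11039 (day 21) normalized counts. Libraries of each later time lay far above those of day 0, and the day 21 libraries were the highest. The log2 fold change of Hexa against day 0 was 1.58 ± 0.10, adjusted p = 6.23e-08 at day 7, 1.68 ± 0.10 at day 14 and 2.03 ± 0.10 at day 21. Its step of 0.35 ± 0.10 from day 14 to day 21 was called but lost without the second library of day 14 (adjusted p = 0.0659) or of day 21 (adjusted p = 0.0885).

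Man2b1, Gaa and Manba had a dip at day 14. Man2b1, the lysosomal alpha-mannosidase, had 1435 and 1432 (day 0), 3519.8 and 3457 (day 7), 2332 and 1986 (day 14), and 3342 and 4376 (day 21) normalized counts. Both day 14 values lay between those of day 0 and those of days 7 and 21. Its log2 fold change was 1.28 ± 0.12, adjusted p = 2.90e-06 at day 7 against day 0, -0.70 ± 0.12, adjusted p = 0.000691 at day 14 against day 7, and 0.83 ± 0.12, adjusted p = 0.000799 at day 21 against day 14. Gaa, the acid alpha-glucosidase that degrades glycogen and is deficient in Pompe disease, had 3795 and 4341 (day 0), 8132 and 9126 (day 7), 5041 and 4161 (day 14), and 7934 and 9356 (day 21) normalized counts. At day 14 its libraries overlapped those of day 0, and the libraries of days 7 and 21 overlapped each other well above them. Gaa stood at log2 1.09 ± 0.12 at day 7 and 1.09 ± 0.12 at day 21 against day 0, with steps of -0.91 ± 0.12 at day 14 against day 7 and 0.91 ± 0.12 at day 21 against day 14. Manba, the beta-mannosidase, had 698 and 709 (day 0), 1430.1 and 1463 (day 7), 962 and 704 (day 14), and 1388 and 1338 (day 21) normalized counts. Its day 14 libraries reached down to the range of day 0, with log2 1.04 ± 0.13 at day 7 and 0.95 ± 0.13 at day 21 against day 0, and -0.81 ± 0.13 at day 14 against day 7. Neither Gaa nor Manba was called at day 14 against day 0, but both were called higher there with the length and GC trend removed (log2 0.48, adjusted p = 0.00194, and 0.39, adjusted p = 0.00573) and without the second library of day 14 (0.31, adjusted p = 0.0445, and 0.45, adjusted p = 0.00142).

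Fuca1, which removes fucose, and Neu1, the sialidase, had no such dip. Fuca1 rose by log2 0.74 at day 7, 1.41 at day 14 and 1.34 at day 21 against day 0, and Neu1 by 0.93, 1.12 and 1.03. Gla, the alpha-galactosidase deficient in Fabry disease, had 495 and 550.4 (day 0), 490.1 and 536 (day 7), 558 and 520.1 (day 14), and 896 and 739 (day 21) normalized counts. Its libraries of days 0, 7 and 14 overlapped and those of day 21 stood above them, at log2 -0.03 ± 0.12 (not called) at day 7 and 0.64 ± 0.12 at day 21 against day 0. Glb1, the acid beta-galactosidase, had 1434 and 1436 (day 0), 1431 and 1536 (day 7), 1131 and 1134 (day 14), and 1717 and 1923 (day 21) normalized counts. The day 14 libraries were below all others, at log2 -0.34 ± 0.09, adjusted p = 0.00591 against day 0, and those of day 21 above all others, at 0.34 ± 0.09, adjusted p = 0.00755; without the second library of day 21 this last value was 0.26 (adjusted p = 0.0515). Acid beta-galactosidase is the enzyme behind the staining used to mark senescent cells, and its transcript at day 7 differed from day 0 by log2 0.05 ± 0.09, which was not called.

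**Figure D2:**
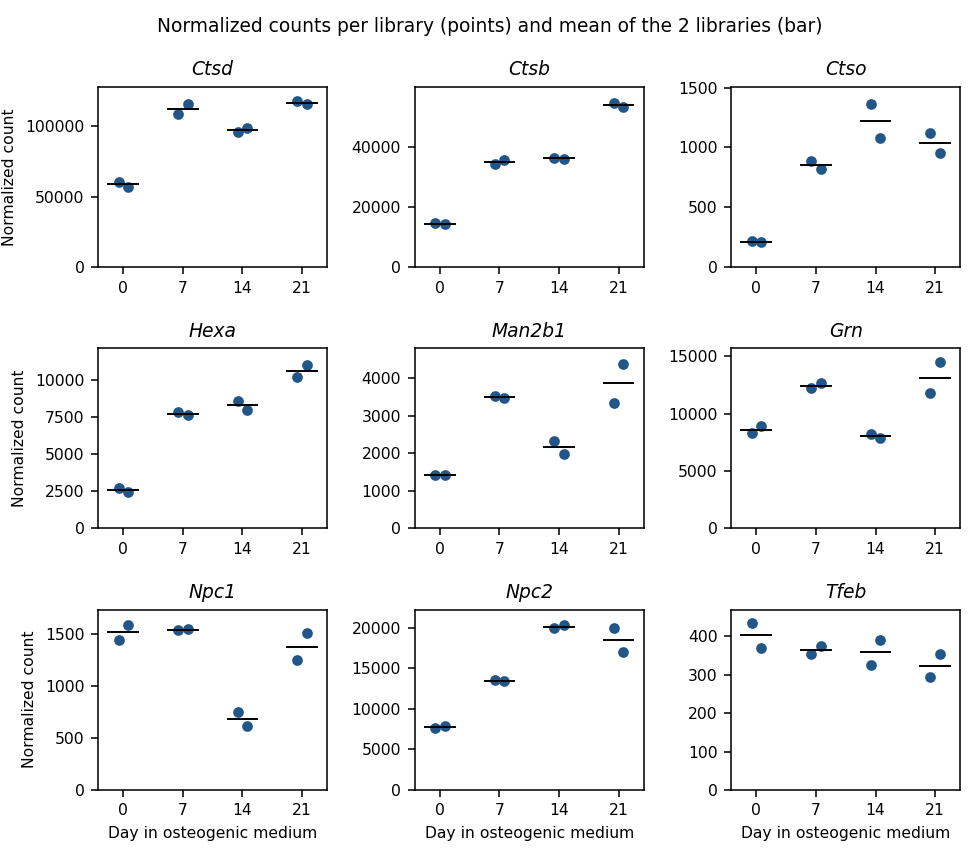
Normalized counts (vertical axes, from 0) of 9 lysosomal genes against day in osteogenic medium, with 1 point per library and a bar at the mean of the 2 libraries. Ctsb and Hexa were highest at day 21, Ctso and Npc2 had their highest mean at day 14, and Man2b1, Grn and Npc1 were lower at day 14 than at days 7 and 21.

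The enzymes that degrade glycosaminoglycans, each of which is deficient in a form of mucopolysaccharidosis, had 5 of 7 called higher at day 7, 2 higher and 1 lower at day 14, and 7 of 7 higher at day 21. Of all tested genes 35.2% were higher and 35.6% lower at day 14, so the 2 higher there were near that share. Their summed level relative to day 0 was 1.41-fold at day 7, 1.01-fold at day 14 and 1.53-fold at day 21, the smallest ratio of the enzyme groups at each time. Naglu, which cleaves heparan sulfate and is deficient in Sanfilippo syndrome, had 896 and 939 (day 0), 1776 and 1926 (day 7), 1489.6 and 1328 (day 14), and 2011 and 2186 (day 21) normalized counts. All later libraries stood above day 0, with those of day 14 below those of days 7 and 21. Naglu rose by log2 1.01 ± 0.10 at day 7, 0.62 ± 0.10 at day 14 and 1.19 ± 0.10 at day 21. Its fall at day 14 against day 7 (log2 -0.39 ± 0.10, adjusted p = 0.00549) was lost without the second library of day 7 (log2 -0.34, adjusted p = 0.0735).

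Arsb, the sulfatase of dermatan and chondroitin sulfate, had 1029 and 1105 (day 0), 1971 and 1945 (day 7), 1307 and 877 (day 14), and 1872 and 1966 (day 21) normalized counts. The day 14 libraries straddled those of day 0 and differed more from each other (log2 0.58) than those of any other gene of the 40 at any time. Arsb stood at log2 0.88 ± 0.15 at day 7, 0.01 ± 0.15 (not called) at day 14 and 0.85 ± 0.15 at day 21 against day 0, and without the second library of day 14 its day 14 value was 0.29 (adjusted p = 0.0196) and without the first it was -0.28 (adjusted p = 0.0223). Sgsh, the heparan sulfamidase, had 1244 and 1437 (day 0), 2117 and 2195 (day 7), 1132 and 1090.4 (day 14), and 1845 and 2254 (day 21) normalized counts. Both day 14 libraries were the lowest of the 8, and those of days 7 and 21 overlapped each other. Against day 7 Sgsh fell at day 14 by 0.96 on the log2 scale (adjusted p = 6.07e-05), and at day 21 it was log2 0.88 ± 0.11, adjusted p = 0.000356 above day 14. Its call below day 0 at day 14 lay at the threshold (log2 -0.27 ± 0.11, adjusted p = 0.0495). The call was lost without the second library of day 0 (log2 -0.16, adjusted p = 0.337), either library of day 7 (adjusted p = 0.0788 and 0.0790) or either library of day 14 (adjusted p = 0.0566 and 0.117), and after removal of the length and GC trend the value was 0.15.

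Ids, the iduronate sulfatase, rose by log2 0.66 at day 7 and 0.59 at day 21. Its day 14 libraries, with 1566 and 1147 normalized counts, lay on either side of those of day 0, with 1436 and 1471. Idua, the iduronidase, rose by 0.48, 0.50 and 0.71 at days 7, 14 and 21. Galns, the sulfatase of keratan sulfate, and Gusb, the beta-glucuronidase, were called higher than day 0 at day 21 alone, at log2 0.33 ± 0.11 and 0.23 ± 0.09. Both calls depended on single libraries. Galns lost its call without the second library of day 0 (log2 0.27, adjusted p = 0.141) and without either library of day 21 (adjusted p = 0.0515 and 0.0576). Gusb lost it without either library of day 0 (adjusted p = 0.155 and 0.107), either library of day 7 (adjusted p = 0.0678 for both) or the second of day 21 (log2 0.20, adjusted p = 0.102). At day 7 Galns stood at log2 0.03 and Gusb at -0.18 against day 0, neither called.

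Of the lipid-handling genes, 5 of 6 were called higher at day 7, 4 at day 14 and 5 at day 21. Psap, the precursor of the saposins that present sphingolipids to their hydrolases, had 17034 and 16314 (day 0), 34674 and 35755 (day 7), 27092 and 25730.0 (day 14), and 35699 and 40893 (day 21) normalized counts. All later libraries lay above day 0, those of day 14 below those of days 7 and 21. Psap rose by log2 1.08 ± 0.11, adjusted p = 5.30e-06 at day 7, 0.66 ± 0.11 at day 14 and 1.20 ± 0.11 at day 21. Its step of -0.42 ± 0.11, adjusted p = 0.00831 at day 14 against day 7 was lost without either library of day 7 (adjusted p = 0.0517 and 0.0761). Npc2, a small cholesterol carrier of the lysosome lumen, had 7619 and 7911 (day 0), 13477 and 13371 (day 7), 19889 and 20315 (day 14), and 19957 and 17018 (day 21) normalized counts. Its level was higher at each step to day 14 and the libraries of days 14 and 21 overlapped, at log2 0.79 ± 0.10, 1.37 ± 0.10 and 1.25 ± 0.10 against day 0 at days 7, 14 and 21.

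Arsa, the sulfatide-degrading arylsulfatase lacking in metachromatic leukodystrophy, had 1588 and 1698 (day 0), 2497 and 2738 (day 7), 1866 and 1582 (day 14), and 2728 and 3126 (day 21) normalized counts. At day 14 its libraries overlapped day 0. Arsa rose by log2 0.67 ± 0.11 at day 7 and 0.83 ± 0.11 at day 21 against day 0, and fell by 0.61 on the log2 scale at day 14 against day 7 (adjusted p = 0.000765). With the length and GC trend removed Arsa was called higher at day 14 against day 0 (log2 0.34, adjusted p = 0.00543). Ppt1, which removes palmitate from proteins, rose by 0.67, 0.92 and 0.99 at days 7, 14 and 21. Lipa, the acid lipase that hydrolyses cholesteryl esters, rose by 0.75 at day 7, 0.27 at day 14 and 0.52 at day 21. The day 14 call of Lipa was lost without any 1 of the libraries of days 0 and 7 or the first of day 14 (log2 0.13 to 0.30, adjusted p = 0.0642 to 0.260). Asah1, the acid ceramidase, had 4916 and 4840.1 (day 0), 5475 and 5066 (day 7), 5354 and 4058 (day 14), and 6332 and 5332 (day 21) normalized counts. Its libraries of day 7 and day 21 lay above those of day 0 and those of day 14 straddled them. No comparison called Asah1, at log2 0.11 ± 0.13, -0.07 ± 0.13 and 0.25 ± 0.13 against day 0 at days 7, 14 and 21; without either library of day 14 its day 21 value was called (log2 0.25, adjusted p = 0.0307 both times).

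The membrane proteins split into genes that rose and genes that did not. At day 7, 3 of 6 were called higher, at day 14 3 higher and 2 lower, and at day 21 4 higher. Of all tested genes 27.5% were higher at day 7, 35.2% at day 14 and 29.8% at day 21. At day 14 35.6% were lower, so the 2 lower membrane protein genes were near that share. Lamp1 and Lamp2 are the heavily glycosylated proteins that line the lysosomal membrane, and Lamp2 also takes part in chaperone-mediated autophagy. Lamp1 had 20776 and 20188 (day 0), 28097 and 27798 (day 7), 23532 and 20654 (day 14), and 30733 and 28327 (day 21) normalized counts. The libraries of days 7 and 21 stood above day 0, and the day 14 libraries reached down into the range of day 0. Its log2 fold change was 0.45 ± 0.11, adjusted p = 0.00425 at day 7, 0.11 ± 0.11 (not called) at day 14 and 0.53 ± 0.11, adjusted p = 0.0013 at day 21. The fall of Lamp1 at day 14 against day 7 (log2 -0.34 ± 0.11) was lost without either library of day 7 (adjusted p = 0.120 and 0.106) or the second of day 14 (adjusted p = 0.105), and its later rise without the second library of day 14 (log2 0.33, adjusted p = 0.0661).

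Lamp2 had 5188 and 5169.6 (day 0), 10950.1 and 10231 (day 7), 10360.0 and 7017 (day 14), and 13352 and 11480.5 (day 21) normalized counts. All later libraries lay above day 0, and those of day 14 differed most from each other. Lamp2 rose by log2 1.03 ± 0.15 at day 7, 0.72 ± 0.15 at day 14 and 1.26 ± 0.15 at day 21, and its step from day 14 to day 21 (log2 0.54 ± 0.15) was lost without the second library of day 14 (log2 0.26, adjusted p = 0.131) or the first of day 21 (log2 0.43, adjusted p = 0.0992). Lamp2 was not called at day 14 against day 7, but was called lower there without the first library of day 14 (log2 -0.59, adjusted p = 0.000728) and with the length and GC trend removed (-0.36, adjusted p = 0.0309). Mcoln1, the cation channel TRPML1 that releases calcium from lysosomes, had 545 and 513 (day 0), 854 and 897 (day 7), 779 and 728 (day 14), and 1002 and 1037 (day 21) normalized counts. Every later library lay above day 0, at log2 0.73 ± 0.10, adjusted p = 4.53e-05 at day 7, 0.51 ± 0.10 at day 14 and 0.95 ± 0.10 at day 21. Cd63, a tetraspanin of late endosomes and exosomes, was at log2 0.03 ± 0.11 (not called) at day 7, 0.75 ± 0.11 at day 14 and 0.57 ± 0.11 at day 21. With 1063 bases it was the shortest transcript of the 40, and with the length and GC trend removed its day 14 value against day 7 was 0.17 in place of 0.71 and no longer called (adjusted p = 0.123).

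Npc1 and Scarb2 fell at day 14. Npc1, the membrane protein that exports cholesterol handed over by Npc2, had 1443 and 1587 (day 0), 1539 and 1545 (day 7), 744 and 618 (day 14), and 1252 and 1505 (day 21) normalized counts. The day 14 libraries lay well below all others, which overlapped. Npc1 stood at log2 -1.16 ± 0.12, adjusted p = 2.72e-06 at day 14 against day 0, and at 1.02 ± 0.12, adjusted p = 0.000224 at day 21 against day 14, while at day 7 and day 21 against day 0 it stood at 0.03 ± 0.12 and -0.14 ± 0.12, neither called. Scarb2, the receptor that brings beta-glucocerebrosidase to the lysosome, had 8604 and 8532 (day 0), 7970.5 and 7685 (day 7), 5400.1 and 4018 (day 14), and 9073 and 7521 (day 21) normalized counts. Both day 14 libraries were again the lowest, at log2 -0.88 ± 0.13, adjusted p = 8.29e-05 against day 0, and neither day 7 (-0.13 ± 0.13) nor day 21 (-0.05 ± 0.13) was called. Npc1 (5224 bases) and Scarb2 (4698 bases) are among the 4 longest transcripts of the 40. With the length and GC trend removed, both remained called lower at day 14 against day 0, at log2 -0.69 and -0.59.

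Tfeb, the regulator itself, was not called in any comparison. It had 436 and 370.0 (day 0), 353 and 376 (day 7), 326 and 392 (day 14), and 295 and 353 (day 21) normalized counts. The libraries of days 7 and 14 overlapped those of day 0, both libraries of day 21 lay below them, and the log2 fold change against day 0 was -0.14 ± 0.14, adjusted p = 0.42 at day 7, -0.17 ± 0.14 at day 14 and -0.32 ± 0.14, adjusted p = 0.0696 at day 21. The day 21 value was called lower without either library of day 14 (adjusted p = 0.0382 and 0.0391) or the second of day 21 (log2 -0.45, adjusted p = 0.0375), and with scaling by total reads. Transcript level does not show where the TFEB protein is in the cell, by which its activity is chiefly set. Sqstm1, the receptor p62 that links ubiquitinated cargo to autophagosomes, had 10412 and 10629 (day 0), 14939 and 15476 (day 7), 14136 and 14158 (day 14), and 15893 and 16317 (day 21) normalized counts. Every later library lay above day 0, at log2 0.53 ± 0.09, adjusted p = 0.000416 at day 7, 0.43 ± 0.09 at day 14 and 0.61 ± 0.09 at day 21. Grn, the precursor of progranulin and the granulins, had 8275 and 8879 (day 0), 12181 and 12692 (day 7), 8226 and 7894 (day 14), and 11767 and 14470.4 (day 21) normalized counts. Its day 14 libraries lay slightly below those of day 0, and those of days 7 and 21 above, at log2 0.54 ± 0.11 at day 7, -0.09 ± 0.11 (not called) at day 14 and 0.61 ± 0.11 at day 21, with -0.63 ± 0.11, adjusted p = 0.000678 at day 14 against day 7.

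**Figure D3:**
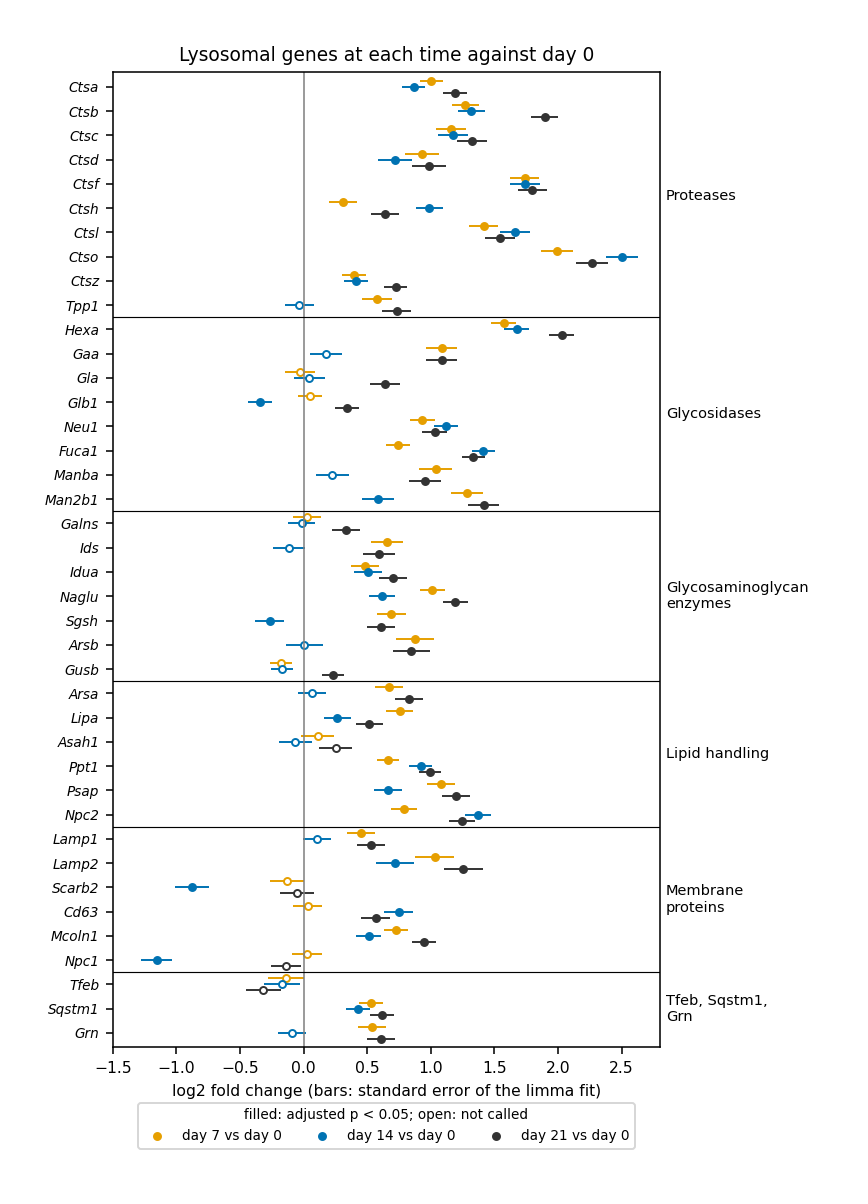
Log2 fold change against day 0 (horizontal axis) of each of the 40 lysosomal genes at days 7, 14 and 21, with bars for the standard error of the limma fit and filled points for called values. The proteases lie to the right of 0 at all times apart from Tpp1 at day 14, and Npc1 and Scarb2 lie furthest left, at day 14.

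Between the later times the group did not move as one. At day 14 against day 7, 6 genes were called higher and 16 lower, where 25.0% of all tested genes were called higher and 27.0% lower. At day 21 against day 14, 24 were called higher and 1 lower (all tested genes: 20.2% higher and 14.3% lower). The median log2 fold change of the 40 was -0.16 in the first of these steps and 0.38 in the second, against 0.00 and 0.02 over all tested genes. Both steps share the day 14 libraries. Of the 40 genes, 12 were called higher at day 7, lower at day 14 and higher at day 21 (Tpp1, Gaa, Manba, Man2b1, Ids, Naglu, Sgsh, Arsb, Arsa, Psap, Lamp1 and Grn). Another 7 were called at the first step alone (Ctsc, Ctsd, Ctsf, Ctsl, Neu1, Idua and Sqstm1), 6 at the first and the last step, both upward (Ctsa, Ctsb, Ctsz, Hexa, Lamp2 and Mcoln1), and 4 upward at the first 2 steps (Ctso, Fuca1, Ppt1 and Npc2). Glb1, Scarb2 and Npc1 were called lower at the second step and higher at the third, Gla, Galns and Gusb higher at the third alone, Ctsh higher at the first 2 and then lower, Lipa higher and then lower, and Cd63 higher at the second step alone. Besides the losses given above for single genes, the second-step calls of Ctso (adjusted p = 0.0587) and Glb1 (adjusted p = 0.0642) were lost without the second library of day 7, and that of Ppt1 without 1 of 5 libraries (adjusted p = 0.0519 to 0.168). Third-step calls were lost for Ctsa without the second library of day 21 (adjusted p = 0.0683), for Ctsz without either library of day 7 or the second of day 21 (adjusted p = 0.0518 to 0.0738), and for Galns without either library of day 7, the second of day 14 or either of day 21 (adjusted p = 0.0532 to 0.147). The first step compares days 7 and 0, the second days 14 and 7, and the third days 21 and 14.

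The day 14 dip moved with transcript length. Across all tested genes the log2 fold change altered by -0.36 per doubling of transcript length at day 14 against day 7 and by 0.24 at day 21 against day 14, while at day 7 against day 0 it altered by -0.01. Among the 40 genes the slopes were -0.59, 0.46 and 0.09 in these 3 comparisons, and Spearman's rho with length was -0.56, 0.65 and 0.07 (40 genes of the same 8 libraries, given as a description). The 16 genes called lower at day 14 against day 7 had transcripts of 2229 to 5224 bases with a median of 3525, and the 6 called higher had 1063 to 3468 bases with a median of 2453. With the trend of length and GC content removed from each library there were 21 lower and 5 higher at day 14 against day 7, 26 higher at day 21 against day 14, and 31 higher and 1 lower at day 7 against day 0. Of the 13421 genes in that fit, 3013 were lower and 2412 higher at day 14 against day 7. At day 21 against day 14, 2245 were higher, and at day 7 against day 0 4134 were higher and 4009 lower. The median of the 40 at day 14 against day 7 was then -0.29 in place of -0.16. For day 14 against day 0, 25 of the 40 were higher and 3 lower, with Gaa, Manba and Arsa gained and Ctsz lost among the higher and Sgsh lost among the lower. Of the 13421 genes, 4667 were higher and 4860 lower there. Grn fell at day 14 against day 7 by 0.63 on the log2 scale before and by 0.66 after the removal. Ctsb, with 4743 bases, stood at 0.05 before and 0.40 after it, and was then called higher (adjusted p = 0.00674). The part of RNA quality or library preparation in these values was not tested.

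**Figure D4:**
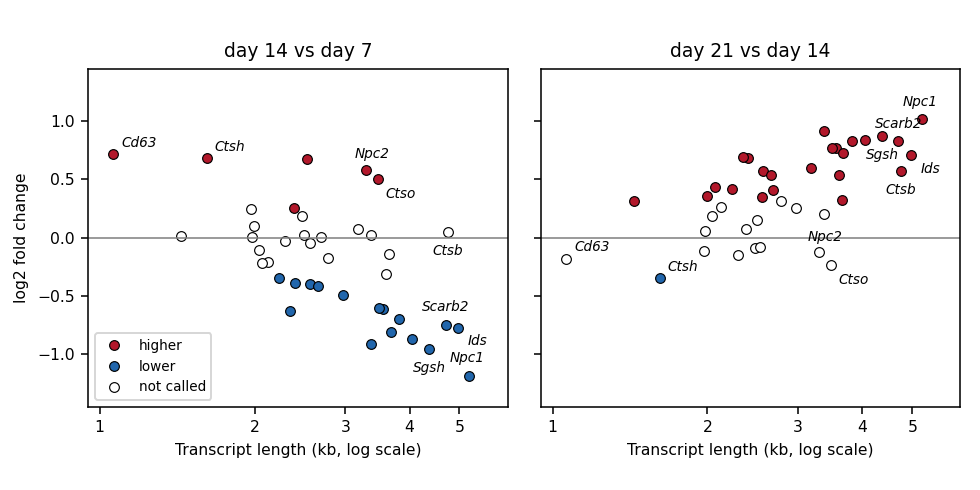
Log2 fold change of the 40 lysosomal genes (vertical axis) against transcript length in kilobases (horizontal axis, log scale), at day 14 against day 7 on the left and at day 21 against day 14 on the right, coloured by call. Long transcripts such as Npc1 and Scarb2 lie low on the left and high on the right, and Cd63 and Ctsh, with short transcripts, the other way round.

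The scaling of the libraries bears on the last step. Scaling by total reads was tried in place of the deposited size factors, and the median of all genes then decreased by 0.11 on the log2 scale in both comparisons of day 21, against day 0 and against day 14. Of all genes, 1965 were then called higher and 2909 lower at day 21 against day 14, in place of 2735 and 1929. The lysosomal genes then had 20 higher and 1 lower in that comparison, and 34 higher and 1 lower (Tfeb) at day 21 against day 0.

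Other genes of the lysosome, taken from lists drawn up by function, were counted in the same way. Of 25 further lysosomal enzymes and cofactors, 19 were called higher and 3 lower at day 7, 14 higher and 5 lower at day 14, and 22 higher and 1 lower at day 21, all against day 0. This list also held Gpnmb, a glycoprotein of lysosomes and melanosomes that is not an enzyme. Gpnmb had 7602 and 7265 normalized counts at day 7, against 752 and 826 at day 0 (log2 3.24 ± 0.10). Cpq, a carboxypeptidase, stood at log2 2.27 ± 0.10 and Dpp7, a dipeptidyl peptidase, at 1.68 ± 0.09 in the same comparison. Of 22 further membrane proteins 10 were called higher and 1 lower at day 7, 9 higher and 8 lower at day 14, and 10 higher and 1 lower at day 21, all against day 0. The sialic acid exporter Slc17a5 (log2 1.41 ± 0.14 at day 7), Cln3 (1.18 ± 0.19) and the chloride-proton exchanger Clcn7 (0.84 ± 0.13) had the largest changes of this list at day 7. These counts stand beside the same shares of all tested genes as those of the 40.

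The subunits of the V-ATPase, the proton pump that acidifies the lysosome, had 9 of 18 called higher and 2 lower at day 7, 12 higher and 4 lower at day 14, and 13 higher and 2 lower at day 21. With the length and GC trend removed, 9 were higher and 4 lower at day 14, with a median log2 fold change of 0.13 in place of 0.46. The counts at days 7 and 21 did not change. Atp6v1b2, the widely expressed B subunit, rose by log2 0.74 ± 0.09 at day 7, and Atp6v0e2, a subunit of the membrane sector, stood at -0.67 ± 0.21. Atp6v0d2, a subunit typical of osteoclasts and macrophages, had 2 reads over both day 0 libraries and 69.2 and 58.8 normalized counts at day 7. Genes that tag and sort lysosomal enzymes had 4 of 17 higher and 4 lower at day 7, 6 higher and 8 lower at day 14, and 6 higher and 5 lower at day 21, near the shares over all tested genes at day 7 (27.5% higher and 27.9% lower). Igf2r, the cation-independent mannose 6-phosphate receptor, had 6447 and 6715 (day 0), 2867 and 3174 (day 7), 1058 and 880.1 (day 14), and 2247 and 2621 (day 21) normalized counts. All later libraries lay below day 0, at log2 -1.12 ± 0.11, adjusted p = 4.17e-06 at day 7, -2.77 ± 0.11 at day 14 and -1.44 ± 0.11 at day 21. These values of Igf2r are without removal of the length and GC trend. Part of Igf2r overlaps the antisense transcript Airn, and without a stated strand reads from the shared part cannot be told apart. Gnptg, a subunit of the enzyme that makes the mannose 6-phosphate tag, rose by log2 2.56 ± 0.12 at day 7, and Sumf1, which activates the sulfatases, by 1.00 ± 0.11.

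TFEB-family and mTORC1 genes had 8 of 20 called higher and 3 lower at day 7, 10 higher and 3 lower at day 14, and 8 higher and 5 lower at day 21. Over all tested genes the shares were 27.5% higher and 27.9% lower at day 7, 35.2% higher and 35.6% lower at day 14, and 29.8% higher and 29.5% lower at day 21, and these also apply to the V-ATPase, sorting and autophagy lists. Mitf, a relative of Tfeb, had 66.9 and 47.1 (day 0), 174 and 154 (day 7), 214 and 189 (day 14), and 175 and 167 (day 21) normalized counts. All later libraries lay above day 0, at log2 1.53 ± 0.18, adjusted p = 1.67e-05 at day 7. Rragd, a GTPase that recruits mTORC1 to the lysosome, rose by 1.55 ± 0.16 and the folliculin gene Flcn by 0.77 ± 0.11 at day 7. Of 22 autophagy genes 15 were called higher and 2 lower at day 7, 13 higher and 3 lower at day 14, and 11 higher at day 21. Gabarapl1 and Map1lc3b, which coat autophagosome membranes, rose by 1.54 ± 0.09 and 0.94 ± 0.10 at day 7, and the cargo receptor Tax1bp1 by 1.08 ± 0.10.

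Macrophage markers rose in the same libraries as the lysosomal genes. Of all tested genes, 27.5% were called higher at day 7, 35.2% at day 14 and 29.8% at day 21 against day 0. At day 21, 29.5% were called lower. Of 22 macrophage markers, 20 were called higher at day 7, 21 at day 14 and 20 at day 21 against day 0, with 1 lower at day 21. Their summed level was 1481 and 1637 normalized counts (day 0), 14187 and 11494 (day 7), 23192 and 42658 (day 14), and 23144 and 23842 (day 21), most of it from day 7 on from Lyz2, which can share reads with its near-identical copy Lyz1. Without Lyz2 the other 21 summed to 834 and 922 (day 0), 5000.0 and 4188 (day 7), 6217 and 10969 (day 14), and 6451 and 8587 (day 21). All 22 markers had reads from day 7 on, and 21 per library at day 0, where Fcgr1 was at 0 in one library and Cd163 in the other. The later steps are given below for both groups of genes, and the part of macrophages in the lysosomal levels was not tested. At day 14 against day 7, 10 macrophage markers were called higher and 0 lower (all tested genes: 25.0% higher and 27.0% lower). In that comparison 6 lysosomal genes were called higher and 16 lower. At day 21 against day 14, 3 macrophage markers were called lower, 0 higher and 19 were not called. All tested genes had 20.2% higher and 14.3% lower there, so the count of lower macrophage markers was near that share. Of the lysosomal genes, 24 were called higher and 1 lower in that comparison. The second day 14 library had 42658 normalized counts of macrophage markers and the first 23192. The lysosomal genes summed to 362066 and 374464 in the same 2 libraries.

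**Figure D5:**
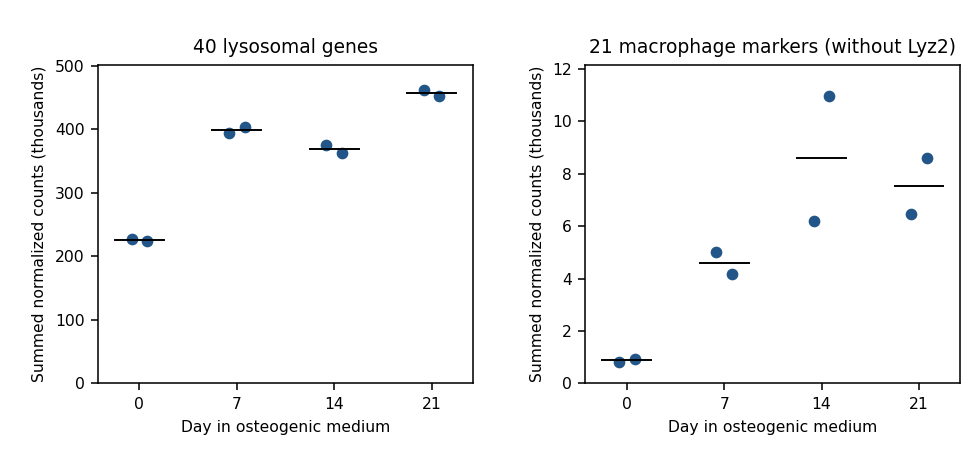
Summed normalized counts (vertical axes from 0) of the 40 lysosomal genes on the left and of 21 macrophage markers without Lyz2 on the right, by day in osteogenic medium, with 1 point per library and a bar at the mean. Both sums were higher at days 7, 14 and 21 than at day 0. The macrophage sum was highest in the second day 14 library and the lysosomal sum in the day 21 libraries.

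Other cell-type markers were counted in the same way. Of all tested genes, 27.5% were called higher and 27.9% lower at day 7 against day 0. These shares were 35.2% and 35.6% at day 14, and 29.8% and 29.5% at day 21. Fibroblast markers summed to 1048034 to 1063850.0 normalized counts at day 0, 600363 to 641279 at day 7, 347622 to 398737 at day 14, and 541621 to 649731 at day 21, and all 12 had reads in every library. The list was mixed gene by gene, with 5 of 12 called higher and 5 lower at day 7 (median log2 -0.02), 4 higher and 7 lower at day 14 (median -0.52), and 5 higher and 5 lower at day 21 (median 0.03), all against day 0. The 10 osteoclast markers summed to 1671 to 1688 normalized counts at day 0, 2316 to 2505 at day 7, 3142 to 3158 at day 14, and 2794 to 3075 at day 21. Of the 6 tested, 2 were called higher at day 7 (near the share of all tested genes), 4 at day 14 and 4 at day 21. There were 2 lower at day 14 and 1 at day 21. At day 14 against day 0 the tested genes ranged from log2 -1.35 to 5.83 (median 1.88). The highest of these values, 5.83, was that of Atp6v0d2. The receptor Calcr and the fusion protein Dcstamp stood at 0 to 4.86 normalized counts in all 8 libraries. Adipocyte markers summed to at most 1300.2 normalized counts at day 0 and to at least 8519 at every later time. Endothelial markers summed to 656 to 685 normalized counts at day 0 and 300.1 to 446 at day 21. Of 7 tested, 1 was called lower at day 7 (below the share of all tested genes), 4 at day 14 and 5 at day 21. Cardiomyocyte markers summed to 1137 to 1213 normalized counts at day 0, 11094 to 11752 at day 7, 22455 to 28813 at day 14 and 5869 to 10595 at day 21, nearly all of it Tnnt2. Of the 3 tested, 2 were called higher at day 7 and 3 at days 14 and 21 against day 0. The myosin Myh6, which was not among the 3, stood at 0 in all 8 libraries. The 10 mitosis markers were all called lower at days 7, 14 and 21 against day 0. The part of these shifts in the levels of the lysosomal genes was not tested.

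The promoters of several of the genes that rose hold the E-box that TFEB-family factors recognise. Promoter sequences (250 bases before to 50 after the transcription start, RefSeq, GRCm38.p6) were matched for 35 of the 40 genes, all but Ctsb, Ctsh, Galns, Npc1 and Asah1. The E-box CACGTG, searched on both strands, which read alike, was found in 12 of the 35 (34.3%), against 2187 of 27025 genes (8.09%) in windows of the same length. These 27025 were not limited to the 13527 genes that passed the filter on low values, as all 40 lysosomal genes did. The shares here therefore do not compare like sets. The longer form GTCACGTG, or CACGTGAC on the other strand, was found in 9 of the 35 (25.7%), against 689 genes (2.55%), and the palindrome TCACGTGA in 4 (11.4%), against 304 (1.12%). Each longer form contains the E-box, so the counts overlap, and the list of genes is one for which such motifs are well known. The 12 with the E-box were Ctsa, Ctsd, Ctsf, Ctsl, Gaa, Gla, Glb1, Naglu, Sgsh, Arsa, Lamp1 and Mcoln1. At day 7 against day 0 the median log2 fold change was 0.83 for the 12 (10 called higher) and 0.74 for the other 23 (19 higher), and at day 21 against day 0 it was 0.97 and 0.85. The order was the other way at day 14 against day 0, with 0.34 for the 12 (6 higher and 2 lower) and 0.50 for the other 23 (15 higher and 1 lower). The medians at day 14 against day 7 were -0.28 (6 lower) and -0.03 (5 higher and 9 lower), and at day 21 against day 14 they were 0.51 and 0.31. None of these differences was tested.

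The 110 bases before the transcription start are shown for 5 of these genes, chosen to span a membrane glycoprotein with several E-boxes, a channel, the most abundant protease, and enzymes that rose early (Naglu) or only at day 21 (Glb1). Capitals mark the E-box CACGTG, and each sequence is given from 5′ to 3′ on the strand of the gene.
Lamp1: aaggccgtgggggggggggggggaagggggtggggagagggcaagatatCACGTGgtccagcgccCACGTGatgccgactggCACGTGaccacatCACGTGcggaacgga
Mcoln1: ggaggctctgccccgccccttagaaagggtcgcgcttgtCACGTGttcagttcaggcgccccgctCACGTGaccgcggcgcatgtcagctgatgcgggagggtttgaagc
Ctsd: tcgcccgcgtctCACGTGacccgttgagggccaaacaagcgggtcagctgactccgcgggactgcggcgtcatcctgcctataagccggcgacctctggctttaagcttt
Naglu: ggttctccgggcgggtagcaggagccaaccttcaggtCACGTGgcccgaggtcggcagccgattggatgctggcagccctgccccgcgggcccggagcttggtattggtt
Glb1: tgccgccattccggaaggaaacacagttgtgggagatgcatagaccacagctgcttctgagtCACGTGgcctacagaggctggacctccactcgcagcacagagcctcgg
In genome coordinates of GRCm38.p6 the stretches are chr8:13159051-13159160, plus strand for Lamp1, chr8:3500409-3500518, plus strand for Mcoln1, chr7:142387828-142387937, minus strand for Ctsd, chr11:101069984-101070093, plus strand for Naglu and chr9:114400968-114401077, plus strand for Glb1. Lamp1 holds 4 E-boxes, whose first bases lie 61, 45, 28 and 15 bases before the start, and Mcoln1 holds 2, at 71 and 45 bases. The E-box of Ctsd begins 98 bases, that of Naglu 73 bases and that of Glb1 48 bases before the start, and Ctsd holds another beyond this stretch at 245 bases. At day 7 against day 0 the log2 fold changes of these 5 genes were 0.45 (Lamp1), 0.73 (Mcoln1), 0.93 (Ctsd), 1.01 (Naglu) and 0.05 (Glb1, not called). All 5 hold the motif and were chosen partly by their course, and the relation of motif and change was not tested. A match of letters is a description of the sequence, and binding of a factor was not measured.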

How the data were processed

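RNA sequencing of 8 libraries was analysed from 1 deposited table of gene symbols by libraries. The deposited values are normalized counts (unit: signal), and their steps show that each library was scaled by 1 common factor. TopHat2 2.0.11, HTSeq 0.6.1, DESeq and the build mm9 are named in the submitters' processing notes without roles. Annotation, strand setting and medium components were not given in the sources used here. All values (100.0%) were whole multiples of 1 read within 0.01 reads, so whole reads were recovered for depth and for count tests.

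A gene needed 10 normalized counts or more in 2 or more libraries, and the 13527 that passed were tested on log2(value + 1) with limma 3.58.1 (trended variance, all 8 libraries, R 4.3.3) and Benjamini-Hochberg adjustment, and called at an adjusted p below 0.05. Fold changes on this scale understate the change of low genes. Transcript lengths came from GENCODE M21 for 23620 of 24015 symbols (98.4%), and all 40 lysosomal genes had one. Alternatives were other pseudocounts, filters, scalings, edgeR 4.0.16 and DESeq2 1.42.0 on recovered reads, a replicate block, removal of the trend with length and GC content (mgcv 1.9.3), and leaving out libraries. The test was tried on simulated data with known changes. Python 3.11.15 drew the figures.

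The members and lists were chosen with earlier results of these data known. Full values are given for the 2 called genes per role with the largest change at day 7 against day 0, at day 14 against day 7 and at day 21 against day 14 (1 per role for the last 2 steps where a role has under 7 genes), for genes called in no comparison, and for Tfeb, Sqstm1, Grn, Lamp1, Lamp2, Ctsd, Ctsb, Hexa and Npc1. Per further list, up to 3 called genes with the largest change at day 7 and a mean of 50 or more in their higher group are named. Gla, Glb1, Ids and Scarb2 lie outside this rule and were given in full after their values were seen.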

Additional observations from a re-analysis of the deposited data

How the results depend on the processing

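Of 200 values (40 lysosomal genes in 5 comparisons) 141 were called, and 119 of these kept call and direction in all 21 alternatives that covered them. Without 1 library in turn, 29 to 31 genes were called higher at day 7 against day 0, 22 to 26 higher and 3 to 5 lower at day 14 against day 0, and 33 to 37 higher and 0 to 1 lower at day 21 against day 0. At day 14 against day 7 the ranges were 4 to 6 higher and 12 to 18 lower, and at day 21 against day 14 they were 20 to 26 higher and 0 to 1 lower. One gene, Gusb, was called lower at day 7 in a fit of only the 4 libraries compared (1 lower) and with the length and GC trend removed (1 lower). At day 21 against day 0, Tfeb was called lower with total-read scaling (1 lower) and without the day 14 libraries (1 lower), an alternative added after seeing the data. At day 21 against day 14 the call of Ctsh was lost (0 lower) in a fit of only the 4 libraries compared, with the length and GC trend removed, and with the replicate block and that trend removed. The fit of only the 4 libraries compared also lost the higher calls of Ctsa, Ctsz, Hexa, Galns, Lamp1 and Lamp2 there (adjusted p = 0.0616 to 0.131, limma). The cause was not tested.

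Of the called values 1 changed sign: Sgsh at day 14 against day 0 (-0.27) was 0.15 with the length and GC trend removed, and no longer called. The other values that changed sign were not called as reported. With the length and GC trend removed there were 15 of these, and only some of them are given here. At day 7 against day 0, Gla (-0.03) was 0.0049 with TMM scaling and 0.0085 with edgeR, and -0.10 to 0.049 with 1 library left out. In the same way Galns (0.03) was -0.0039 and Npc1 (0.03) -0.0045 with total-read scaling, and with 1 library left out Galns ranged over -0.033 to 0.087, Npc1 over -0.042 to 0.095 and Glb1 over -0.0037 to 0.098. At day 14 against day 0, Tpp1 (-0.03) was 0.0094 with edgeR, and with the length and GC trend removed, with or without the replicate block, Tpp1 was 0.080, Sgsh 0.15 and Lamp1 -0.011. With 1 library left out Tpp1 ranged over -0.21 to 0.15, Arsb over -0.28 to 0.29 and Asah1 over -0.27 to 0.13. At day 21 against day 0, Scarb2 was 0.043 and Npc1 0.039 with the trend removed, with or without the block, and Scarb2 ranged over -0.19 to 0.083 with 1 library left out.

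Same-numbered libraries did not deviate together (correlations of -0.04 to 0.07 between times), so no shared effect of the replicate number was seen. Such correlations cannot show whether same-numbered libraries stem from the same mouse or culture. With the replicate block 31, 23 and 36 genes were called higher at days 7, 14 and 21 against day 0, 6 higher and 16 lower at day 14 against day 7, and 25 higher at day 21 against day 14, where Asah1 was gained (adjusted p = 0.0439, limma). Over all genes edgeR called 3913 higher and 3668 lower at day 7 against day 0. Counts over all genes moved by over 1.5 times at day 21 against day 14 alone (2735 higher and 1929 lower). There they were 1596 and 1039 in a fit of only the 4 libraries compared, 2245 and 1234 with the length and GC trend removed, 2152 and 1127 with the block as well, 1717 and 844 without the second library of day 14, 1495 and 808 without the second library of day 21, and 1965 and 2909 with total-read scaling. The noisier libraries of days 14 and 21, with 2 per time, limit small differences between them.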
